A study of Rattus norvegicus with 287 samples.

Results

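The pyruvate dehydrogenase kinases are the 4 genes Pdk1, Pdk2, Pdk3 and Pdk4, taken by gene symbol from the 32623 genes counted in a rat RNA sequencing study of ultrasound and obesity. They were chosen because earlier results of the same libraries had shown how they differ by tissue, by obesity and by ultrasound, so those comparisons are given as descriptions with no test of their own. In the files Pdk1 is ENSRNOG00000001517, Pdk2 is ENSRNOG00000004172, Pdk3 is ENSRNOG00000012513 and Pdk4 is ENSRNOG00000009565.

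Pyruvate dehydrogenase is the mitochondrial enzyme complex that turns pyruvate into acetyl-CoA and so commits glucose carbon to oxidation. The kinases phosphorylate its E1 subunit and switch the complex off, and dedicated phosphatases switch it on again. Pdk2 is the widely expressed kinase of fed tissues, Pdk4 is known for rising in muscle, heart and liver in fasting and diabetes under PPAR, FOXO and glucocorticoid signals and for being held down by insulin, Pdk1 is a known target of the hypoxia factor HIF-1, and Pdk3 is known from brain and testis. Pdk4 is therefore often read as a marker of a tissue that burns fat in place of glucose.

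The treatment was peripheral focused ultrasound (pFUS), which was given at the porta hepatis, the entry of vessels and nerves into the liver, for 3 minutes at 1.1 MHz under isoflurane, and controls had the same handling with no energy. It holds 287 libraries in 70 groups and 8 tissues, 1 to 5 animals a group. Obese ZDF rats (Zucker diabetic fatty) and Lean Zucker rats, all male, were treated or sham-treated for 7 weeks. Obese ZDF rats were also studied after 3 days (control, pFUS AM only x1, pFUS AM only x10) and after 4 weeks (pFUS AM & PM x1, AM only x10, AM & PM x10, with no control), in liver, muscle and adipose tissue. The labels do not say what x1 and x10 count. The third model, DIO-stz (per its name a diet-induced obese rat given streptozotocin, which kills beta cells), was treated or sham-treated for 7 weeks in both sexes, beside pFUS-treated DIO Diet Resistant rats. Ages are not given in the labels, kidney and pancreas of the lean rats were not analysed here, and the whole study is bulk tissue, so fewer cells of a type and less RNA per cell cannot be told apart.

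Library totals ran from 2380545 to 43088790 counts. Levels are given as CPM, counts scaled to a common library total, and differences as log2 fold changes from edgeR. It rescales libraries by TMM factors, and its values are what the calls rest on. Each SE was derived from the edgeR test, as the absolute log2 fold change divided by the square root of the F statistic. A gene is called where its adjusted p over all genes of that tissue is under 0.05. CPM is not divided by transcript length, so levels are compared between tissues and groups of 1 gene, not between kinases. Defining markers matched the labelled tissue in liver (Alb at 63305 CPM or more in all 55 libraries), pancreas (Cpa1 at 6507 CPM or more) and blood (Hbb at 116154 CPM or more). In adipose tissue they did not in every library: 5 of the 48 libraries held Ckm, the muscle creatine kinase, at 16510.3 CPM or more with Adipoq at or below 15.6 CPM, and 2 held the kidney tubule gene Umod at 474 and 172 CPM. Replicate numbers are read as animals, with a doubt for 3 of them: ENSRNOG00000030106, chosen after its values were seen, was low in some tissues and high in others of obese control 5 (0.325 CPM in liver, 7.86 CPM in blood), obese pFUS 8 (7.54 and 0.244 CPM) and obese pFUS 9 (0.223 and 4.74 CPM).

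The start regions of the 4 genes are described first, because Pdk4 and Pdk1 were the 2 members higher in obese liver and their windows shared no match to the motifs searched. The RefSeq windows (assembly GRCr8, 250 bases before to 50 after the start, each shown on the strand of its gene) lie at chr4:34568280-34568579, minus strand, for Pdk4 and chr3:77113264-77113563, plus strand, for Pdk1. Capitals mark the matches to the searched motifs: ACGTG and GCGTG, core letters of the hypoxia response element, and CCAAT, the CCAAT box, each on either strand.
Pdk4: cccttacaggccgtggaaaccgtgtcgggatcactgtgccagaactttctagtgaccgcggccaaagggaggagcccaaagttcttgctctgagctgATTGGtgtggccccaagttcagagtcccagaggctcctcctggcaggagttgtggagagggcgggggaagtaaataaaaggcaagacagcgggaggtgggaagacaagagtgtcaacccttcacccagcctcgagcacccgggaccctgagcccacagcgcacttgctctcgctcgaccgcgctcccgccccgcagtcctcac
Pdk1: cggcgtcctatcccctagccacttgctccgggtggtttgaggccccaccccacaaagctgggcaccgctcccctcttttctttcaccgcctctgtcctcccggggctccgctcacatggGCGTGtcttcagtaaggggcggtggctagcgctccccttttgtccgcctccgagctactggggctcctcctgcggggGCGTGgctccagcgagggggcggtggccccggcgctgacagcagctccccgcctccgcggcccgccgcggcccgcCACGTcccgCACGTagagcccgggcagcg

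The Pdk1 window held GCGTG at 131 and 54 bases before the start and ACGTG, read on the other strand, at 22 and 31 bases after it. The Pdk4 window held neither and had 1 CCAAT box, on the other strand 153 bases before the start. The Pdk3 window held GCGTG 4 times, ACGTG 1 time and CCAAT 1 time, and the Pdk2 window held CCAAT 3 times and the E-box CACGTG, the letters that clock factors bind, 143 bases before the start; ACGTG on both strands lies inside that E-box. None of the 4 windows held TGTTTAC or TGTTTGC (FOXO), AGGTCA (the core of PPAR elements) or AGAACA (the core of glucocorticoid elements). Of all 33469 RefSeq windows of this length, 19.3% held ACGTG, 29.7% GCGTG, 37.5% CCAAT, 6.42% CACGTG, 3.78% TGTTTAC, 4.88% TGTTTGC, 16.2% AGGTCA and 20.7% AGAACA. GC content was 72.0% for Pdk1, 69.3% for Pdk3, 64.0% for Pdk2 and 61.3% for Pdk4, against a median of 51.7% over all windows. A match is a run of letters, not a bound site, and a window without one says nothing of sites elsewhere in the gene.

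Each kinase had its own order of tissues. In the obese ZDF controls at 7 weeks (n = 5, adipose n = 4) Pdk4 averaged 372 ± 196 CPM (SD) in muscle, 348 ± 364 in adipose tissue and 136 ± 44.7 in liver. It was lower in kidney (41.1 ± 35.4), intestine (38.3 ± 22.3), brain (7.32 ± 4.66) and pancreas (3.52 ± 2.46). Each neighbouring pair in that order overlapped, except that all pancreas libraries lay above blood, where Pdk4 was at 0 in all 5. Over the 31 blood libraries of the series 25 had no Pdk4 count and the other 6 had 13 counts in all; 3 counts correspond to 0.0822 to 0.206 CPM there, so Pdk4 was not measurable in blood at this depth.

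Pdk2 was highest in kidney, at 222 ± 112 CPM, which overlapped muscle at 186 ± 53.9. It then fell to 90.6 ± 17.3 in liver, 66.4 ± 14.5 in brain, 31.3 ± 20.7 in adipose tissue, 14.9 ± 5.16 in intestine, 3.84 ± 0.785 in pancreas and 0.507 ± 0.334 in blood. Muscle and liver did not overlap, and neither did intestine and pancreas or pancreas and blood. Pdk1 was highest in adipose tissue (59.5 ± 22.0) and liver (49.6 ± 6.72), which overlapped each other, and the liver libraries all lay above brain (27.7 ± 6.90). Intestine (17.4 ± 2.74), muscle (15.6 ± 4.42) and pancreas (11.7 ± 0.857) formed an overlapping run, followed without overlap by kidney (5.19 ± 1.88) and blood (0.784 ± 0.473).

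Pdk3 had the opposite layout to Pdk2 in muscle and liver. Intestine held 48.1 ± 9.92 CPM, above every brain (24.5 ± 6.18) and kidney (24.1 ± 4.82) library, and liver held 0.484 ± 0.160, the lowest of the 8 tissues. Adipose tissue (6.67 ± 5.25) and blood (6.64 ± 1.82) overlapped, as did pancreas (1.60 ± 0.725), muscle (1.06 ± 0.553) and liver in turn. Pdk3 was the only member with 2 transcripts in the annotation, the others having 1 each. Of its transcripts ENSRNOT00000076652 held 87.5% of the Pdk3 isoform counts in brain, the lowest share, and 98.8% in pancreas, the highest. Pancreas and adipose libraries were made with another kit than the rest, which cannot be told apart from tissue in these orders.

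**Figure D1:**
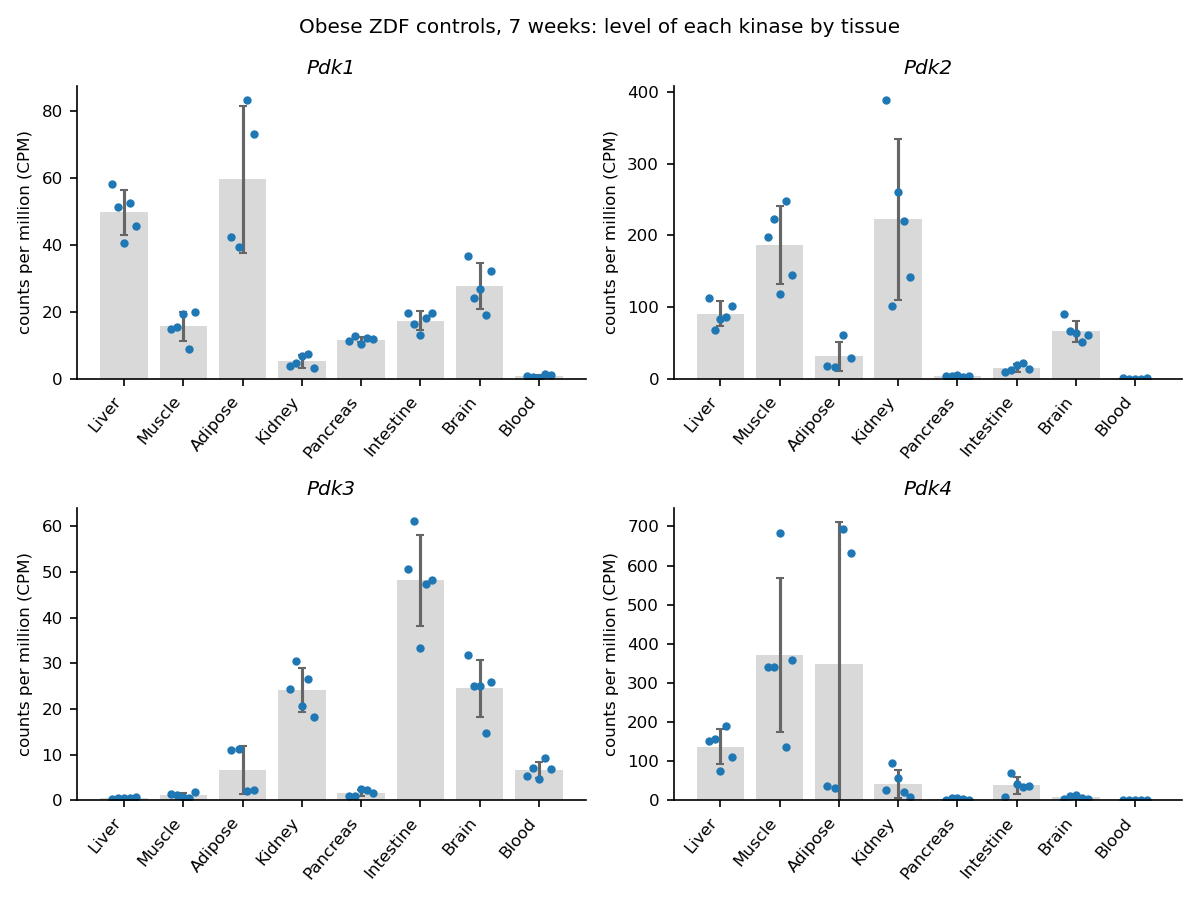
CPM of each kinase (vertical axis, linear, a separate scale for each gene) in the 8 tissues of the obese ZDF controls at 7 weeks; grey bars are means, whiskers SDs and points single libraries. Pdk4 in adipose tissue splits into libraries at 30.8 and 37.8 CPM and libraries at 631 and 694 CPM, while Pdk3 is highest in intestine and Pdk2 in kidney and muscle.

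Over all libraries of liver, muscle, pancreas and brain Pdk4 had the widest fold range of the 4 kinases. In liver it ran from 3.85 to 189.7 CPM over 55 libraries, a 49.2-fold range, in muscle from 17.1 to 1018 CPM over 52 libraries (59.4-fold), in adipose tissue from 6.14 to 814 CPM over 48 libraries (133-fold) and in pancreas from 0.396 to 54.6 CPM over 20 libraries (138-fold). In liver Pdk1 spanned 4.15-fold and Pdk2 4.18-fold, and in muscle they spanned 4.90-fold and 3.46-fold. Pdk3, at low levels, spanned 8.82-fold in liver and 10.4-fold in muscle and ran from 0 to 23.7 CPM in adipose tissue. In brain the spans were 2.36-fold for Pdk1, 3.02-fold for Pdk2, 2.64-fold for Pdk3 and 12.0-fold for Pdk4.

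Obesity was set against leanness in the control rats at 7 weeks. Of the 23 pairs of kinase and tissue that could be fitted 3 were called, Pdk4 in liver, Pdk4 in muscle and Pdk1 in liver, each higher in the obese rats; over all genes and tissues 11.3% of fits were called (14.3% in liver, 8.14% in the higher direction, and 52.6% in muscle, 27% in the higher direction), and the kinases were chosen on this contrast. Pdk4 in liver was 151, 156, 74.4, 189.7 and 110.2 CPM in the obese rats and 7.55, 21.1, 28.1, 9.65 and 3.85 CPM in the lean rats. Every obese liver was above every lean one, with a log2 fold change of 3.36 ± 0.39 (SE). Arntl, a clock gene, also differed between these livers without overlap, and its part in the liver differences of this contrast was not tested. In muscle Pdk4 was 341, 341, 683, 137 and 358 CPM in obese and 25.9, 17.1, 37.5 and 27.5 CPM in lean rats, again without overlap (3.86 ± 0.46). None of these 3 calls was lost when any 1 library was left out.

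Muscle libraries of the obese and lean rats also differed in kind. RNAs that carry no poly(A) tail made up 4.02 to 9.29% of counts in the lean control muscles and at most 0.0218% in the obese ones, so library kind and obesity cannot be told apart in muscle. In liver the same share was at most 0.0115% in both groups of controls. Elsewhere the share did not follow the kits named in the labels: it was 3.93 to 8.40% in 3-day and 4-week liver and 0.00481 to 0.0371% in DIO-stz adipose tissue, so levels set across cohorts mix library kinds. Pdk1 in liver, measured in the same libraries, was 58.1, 51.3, 40.6, 52.4 and 45.7 CPM in obese and 27.2, 26.4, 33.6, 22.7 and 19.3 CPM in lean controls, a difference without overlap of 0.97 ± 0.16 (SE) on the log2 scale. Pdk1 in muscle had close means, 15.6 ± 4.42 and 16.3 ± 2.05 CPM.

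The remaining pairs of this contrast were not called. Pdk4 in intestine averaged 38.3 ± 22.3 CPM in obese and 14.2 ± 9.89 in lean rats with overlapping libraries (1.43 ± 0.54). Pdk2 differed by -0.08 ± 0.30 in liver, 0.47 ± 0.26 in muscle and 0.61 ± 0.29 in intestine, and Pdk3 by -0.44 ± 0.30 in liver and -0.05 ± 0.14 in intestine. In brain the 4 kinases lay between -0.16 and 0.48, and in blood the 3 that were measurable lay between -0.16 and 0.11.

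**Figure D2:**
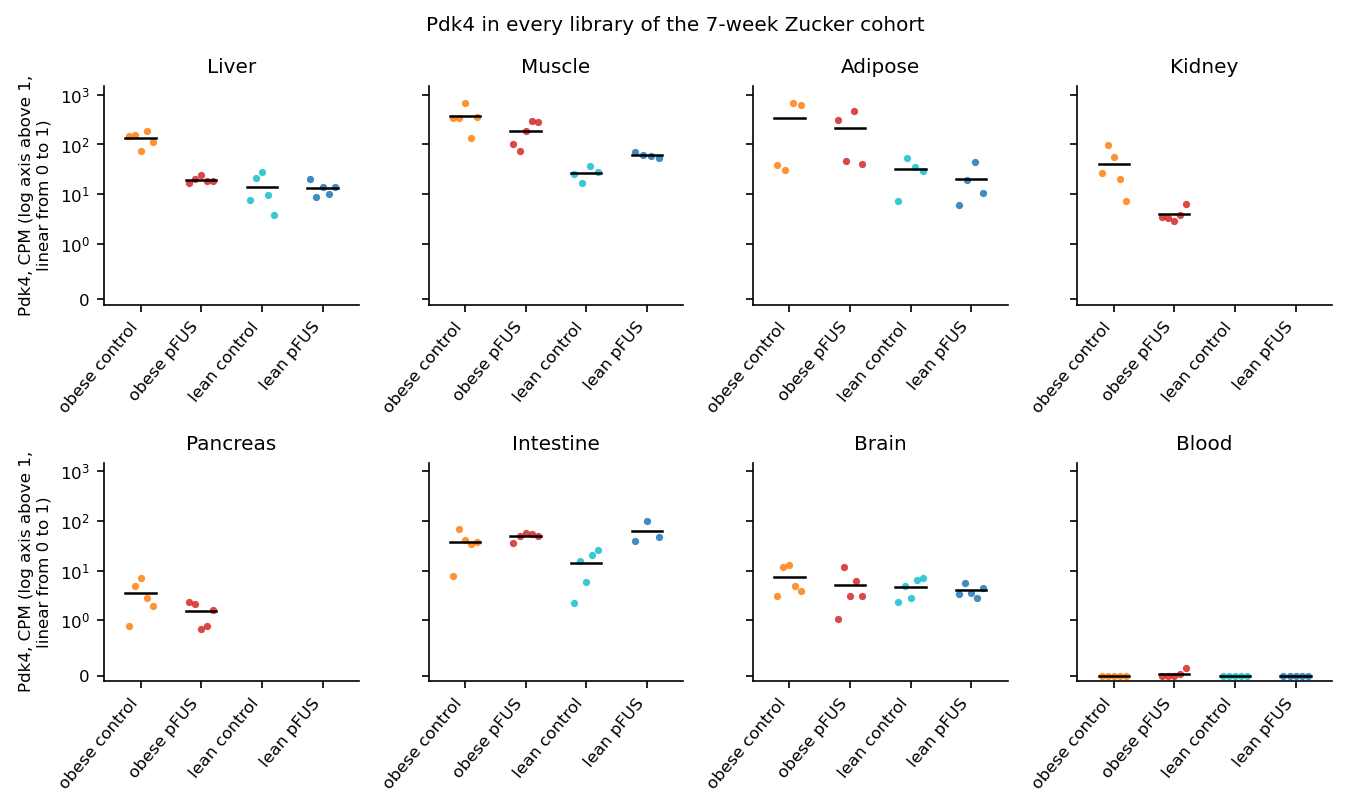
Pdk4 in CPM (vertical axis, logarithmic above 1 and linear from 0 to 1) in every library of the 7-week obese ZDF and Lean Zucker rats, 1 panel a tissue; points are libraries and black bars group means, and lean kidney and pancreas are empty. In liver the obese controls sit at 74.4 to 189.7 CPM while the obese pFUS livers, at 16.5 to 24.7, lie in the range of the lean rats.

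Ultrasound for 7 weeks went with less Pdk4 in liver and kidney of the obese rats. In obese pFUS liver Pdk4 was 16.5, 20.3, 24.7, 18.2 and 18.5 CPM, all below the lowest obese control (74.4 CPM), a log2 fold change of -2.91 ± 0.38. The 5 treated livers averaged 19.6 ± 3.13 CPM, beside 14.0 ± 10.1 in the lean controls. These 2 contrasts share the obese controls. Of 31 pairs of kinase and tissue 2 were called, both Pdk4 and both lower, where 0.0932% of all fits were called (0.397% in liver, 0.35% in the lower direction, and 0.105% in kidney, 0.105% in the lower direction).

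Kidney Pdk4 was 26.5, 95.6, 56.3, 20.1 and 7.23 CPM in the obese controls and 3.47, 3.33, 2.93, 3.85 and 6.29 CPM after pFUS. The groups did not overlap, but the lowest control and the highest treated kidney were close, and the controls spanned more than the treated rats (log2 fold change -3.18 ± 0.52). This call was lost in 8 of the 10 refits that left out 1 kidney, all but those without control 2 or control 5, and with the older quasi-likelihood method of edgeR, where the fold change was -3.19. In muscle Pdk4 was 104, 73.8, 183, 296 and 279 CPM after pFUS, overlapping the control values given above (-1.09 ± 0.37, not called). Pancreas, at 0.904 to 7.07 CPM in controls and up to 2.36 CPM after pFUS, where the lowest library held 2 Pdk4 counts, below its limit of 1.26 CPM for 3 counts, overlapped too (-0.95 ± 0.45), as did intestine (0.65 ± 0.53) and brain (-0.46 ± 0.48).

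Clock genes moved in the same livers and kidneys. Arntl, the clock activator BMAL1, was 18.1 to 33.4 CPM in obese control liver and 2.13 to 6.02 CPM in obese pFUS liver, and 15.7 to 33.8 against 3.52 to 6.16 CPM in kidney. In lean liver, where Pdk4 was low in both groups, Arntl was 0.436 to 1.46 CPM in controls and 1.91 to 7.36 CPM after pFUS. Dbp, a clock output gene that peaks at the other side of the day, was 3.25 to 26.2 CPM in obese control liver and 82.4 to 138 CPM after pFUS. Arntl thus differed between obese and lean controls in liver too, without overlap. The labels give no time of day for tissue collection. The part of the clock, or of sampling time, in the Pdk4 values of any of these contrasts was not tested.

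In the lean rats no kinase was called in any of the 23 pairs, beside 0.0643% of all fits. Pdk4 in lean liver was 20.1, 8.78, 14.2, 10.3 and 14.2 CPM after pFUS, within the lean control range (0.20 ± 0.36). Lean muscle went the other way from obese muscle: Pdk4 was 70.1, 61.9, 59.3 and 53.7 CPM after pFUS, above all 4 lean controls (1.27 ± 0.42, not called). Lean intestine likewise held 40.1, 98.5 and 47.8 CPM after pFUS and 2.26, 15.9, 6.02, 21.0 and 25.8 CPM in controls, with no overlap and no call (2.21 ± 0.60). In the intestine Fabp6, a bile acid binding protein of the ileum, was high in some libraries, at 8719.5 and 14139.9 CPM in 2 of the lean controls, and the part of the piece of gut taken was not tested.

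The difference between the obese and the lean response was itself fitted. For Pdk4 it was -3.11 ± 0.51 on the log2 scale in liver, the 1 call among 23 pairs where 0.0668% of all fits were called. It was -2.35 ± 0.56 in muscle and -1.56 ± 0.81 in intestine, neither called. Pdk1 in liver gave -0.55 ± 0.22, from -0.23 ± 0.16 in obese and 0.31 ± 0.16 in lean rats, not called.

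**Figure D3:**
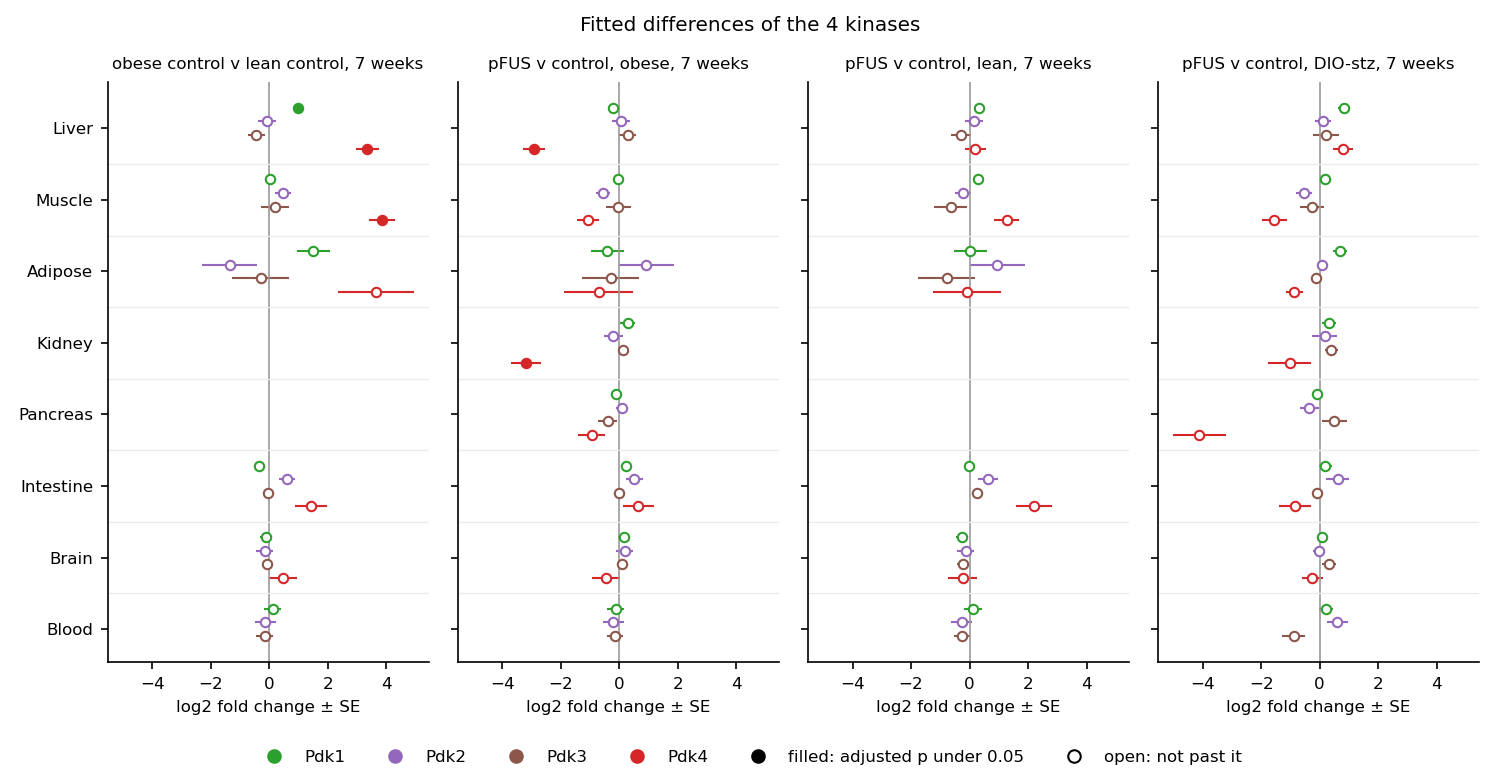
Fitted log2 fold changes (horizontal axis, points) with SEs (lines) of the 4 kinases by tissue for the 4 contrasts of the 7-week rats; filled points are past an adjusted p of 0.05. Pdk4 covers the widest range, from 3.86 in obese against lean muscle (filled) to -4.11 in DIO-stz pancreas (open). Its other filled points are liver in obese against lean, and liver and kidney in obese pFUS against control. Of the other kinases only Pdk1 in obese against lean liver, at 0.97, is filled.

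After 3 days of treatment in obese rats edgeR called no kinase against the 3-day controls, in 11 pairs for each schedule, where 0.192% (x1) and 0.879% (x10) of all fits were called. Liver Pdk4 was 61.1, 107, 120.4 and 135 CPM in controls, 29.2, 24.9, 46.1 and 50.6 CPM with x1, and 64.1, 22.5, 27.4 and 45.0 CPM with x10. All x1 livers were below all controls (-1.48 ± 0.40), and 1 x10 liver lay above the lowest control (-1.46 ± 0.40). DESeq2 called both, at -1.49 and -1.45. Both schedules share the same controls. Arntl was 18.6 to 45.7 CPM in these controls, 1.88 to 14.8 CPM with x1 and 0.978 to 4.95 CPM with x10; its part was not tested. Muscle Pdk4 was 601, 330.3, 283 and 78.6 CPM in controls and overlapped both schedules (0.07 ± 0.46 and 0.70 ± 0.46).

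The contrast of x10 against x1 was not itself used to pick the kinases, and it was fitted with its p-values. At 3 days it is built from the x1 and x10 contrasts against control, which were used. Its 3-day p-values are therefore a description, not an independent test. No kinase passed at 3 days, in 11 pairs, where edgeR called 0.147% of all fits (0.466% in liver, none in muscle or adipose tissue, where 1061 and 1480 genes had an unadjusted p under 0.05). Liver Pdk4 differed by 0.02 ± 0.39 (edgeR adjusted p = 0.988) and muscle Pdk4 by 0.64 ± 0.46 (edgeR adjusted p = 0.714). Pdk1 in muscle had the clearest separation: 31.5, 30.1, 24.0 and 43.2 CPM with x10 against 18.0, 21.3, 17.2 and 18.1 CPM with x1. The groups did not overlap, and the fitted difference was 0.77 ± 0.17 with an edgeR adjusted p of 0.381; DESeq2 gave 0.78 and an adjusted p of 0.0230. The 3-day control muscles, at 24.1, 19.6, 22.1 and 22.6 CPM, overlapped both.

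At 4 weeks, where there is no untreated group, 2 further schedule contrasts were tested and no kinase passed in 12 pairs of either. Over all genes edgeR called 0.264% of fits for AM & PM x10 against x1 and 0.398% for AM & PM x10 against AM only x10. Liver Pdk4 was 31.2, 119.7, 51.9 and 64.9 CPM with AM & PM x1, 65.7, 117, 112 and 109.7 CPM with AM & PM x10, and 29.4, 147, 156 and 134 CPM with AM only x10. The 3 groups overlapped, and AM & PM x10 differed from x1 by 0.62 ± 0.53 (edgeR adjusted p = 0.588) and from AM only by -0.17 ± 0.52 (edgeR adjusted p = 0.899). Arntl in these livers was 6.14 to 14.8 CPM with x1, 13.5 to 29.0 CPM with AM only x10 and 2.73 to 10.2 CPM with AM & PM x10, and its part was not tested. Pdk2 in liver, at 103 ± 6.23 CPM with AM & PM x10, 83.3 ± 15.6 with x1 and 88.6 ± 9.97 with AM only, gave the smallest adjusted p-values, 0.128 and 0.198 (edgeR; differences 0.33 ± 0.11 and 0.26 ± 0.10).

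Adipose Pdk4 at 4 weeks was 58.7, 67.2, 49.2 and 77.3 CPM with AM & PM x10 and 45.9, 19.0, 44.0 and 35.3 CPM with x1. The groups did not overlap, yet with a difference of 0.81 ± 0.25 the edgeR adjusted p was 0.984, no gene being called in this tissue and 589 having an unadjusted p under 0.05. Muscle Pdk4 was 153 to 844 CPM with x1, 312 to 632 CPM with AM only x10 and 412 to 828 CPM with AM & PM x10, with differences of 0.18 ± 0.40 (edgeR adjusted p = 0.866) and 0.22 ± 0.40 (edgeR adjusted p = 0.999).

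**Figure D4:**
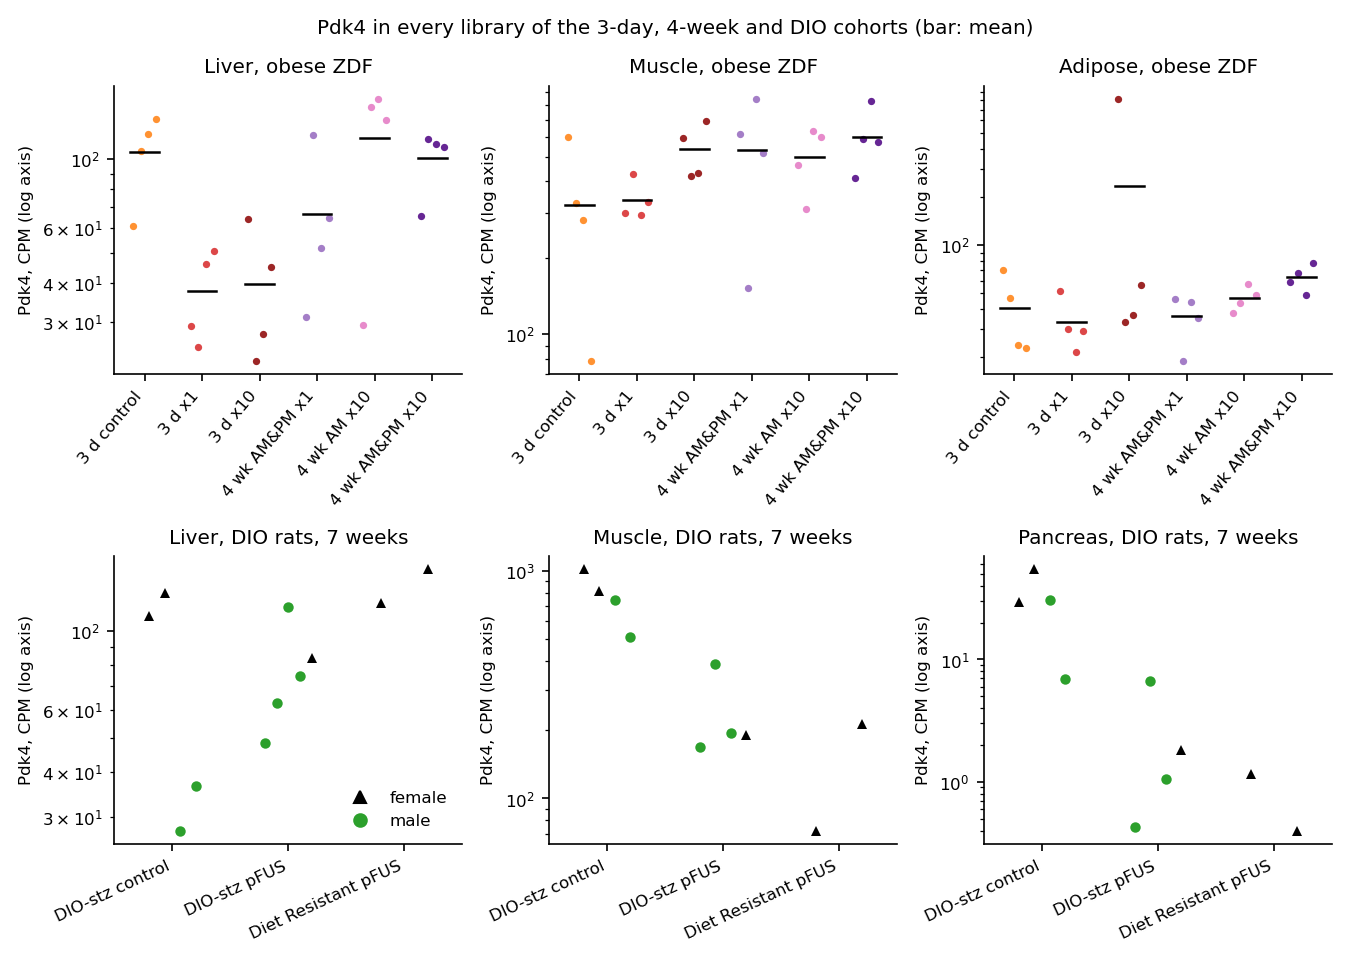
Pdk4 in CPM (vertical axes, logarithmic) in every library of the 3-day and 4-week obese ZDF cohorts (upper row, bars are means) and of the DIO cohort (lower row, triangles female and circles male). In liver the 3-day x1 libraries lie at 24.9 to 50.6 CPM, below all 3-day controls, and in DIO-stz pancreas the controls lie at 6.86 to 54.6 and the treated rats at 0.425 to 6.71.

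In muscle the DIO-stz controls had the highest group mean of Pdk4 in the series, across cohorts that mix library kinds. These controls had 1018 and 818 CPM (females) and 742 and 513 CPM (males). The DIO-stz pFUS rats had 168, 392 and 195 CPM (males) and 189 CPM (female). The groups did not overlap, and the fitted difference, sex in the model, was -1.56 ± 0.43. In pancreas Pdk4 was 29.6 and 54.6 CPM (females) and 30.9 and 6.86 CPM (males) in controls against 0.425, 6.71, 1.05 and 1.81 CPM after pFUS. The lowest control and the highest treated pancreas were nearly level (-4.11 ± 0.92). RNAs that carry no poly(A) tail made up 34.0, 27.8, 25.0 and 85.8% of counts in these controls and 16.4 to 19.9% after pFUS, without overlap, and control 6, at 85.8%, had the lowest CPM of all 4 kinases among the controls. As CPM of the other RNAs alone Pdk4 was 44.9, 75.6, 41.2 and 48.2 in controls and 0.524, 8.03, 1.31 and 2.20 after pFUS, and the refit on those RNAs, chosen after seeing the data, gave -4.11 ± 0.87, not called. Adipose Pdk4 was 69.7, 54.0, 41.3 and 47.3 CPM in controls and 19.6, 33.9 and 17.5 CPM after pFUS, also without overlap (-0.87 ± 0.29). Without pFUS rat 8 the pancreas difference of Pdk4 was -5.25 and past the threshold.

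None of the 31 pairs of the DIO-stz contrast was called by edgeR, beside 0.277% of all fits, and DESeq2 called 3: Pdk4 in muscle, Pdk4 in pancreas and Pdk1 in liver. Liver Pdk4 did not share the direction, at 110.3 and 128 CPM (females) and 27.3 and 36.5 CPM (males) in controls and 48.3, 62.7, 117 and 74.5 CPM (males) and 84.0 CPM (female) after pFUS (0.79 ± 0.33). That fitted difference has sex in the model, while the plain group means were close, 75.4 ± 50.9 CPM in controls and 77.2 ± 25.8 CPM after pFUS. Pdk1 in liver was 36.3, 39.0, 23.3 and 25.3 CPM in controls and 43.6, 28.6, 45.6, 45.2 and 57.7 CPM after pFUS, overlapping (0.83 ± 0.19); without pFUS rat 8 it was 0.91 and past the threshold. Kidney Pdk4 overlapped as well, at 8.21 to 53.9 CPM in controls and 4.08 to 23.4 CPM after pFUS (-1.02 ± 0.73). In males alone its difference was -0.09, and with no sex term -1.55.

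The pancreas of the same rats differed in its islet signal. Ins2, an insulin gene, was 5.32 to 54.9 CPM in DIO-stz controls and 73.6 to 441 CPM after pFUS, without overlap, and 408 to 1065 CPM in the obese ZDF controls, whose Pdk4 was 0.904 to 7.07 CPM. Cpa1, the acinar enzyme carboxypeptidase A1, was 6507 to 40609 CPM in the controls and 40315 to 61183 CPM after pFUS, or 39049 to 56797 and 48514 to 74257 as CPM of the other RNAs. Adipoq, the fat cell gene, was 0.232 to 1.78 CPM in DIO-stz control pancreas and 0.310 to 5.45 CPM after pFUS. Ins2 and Adipoq were not recomputed as CPM of the other RNAs. Their DIO-stz values therefore include the larger share of RNAs without a poly(A) tail in the controls. The part of islet or acinar content in the Pdk4 values was not tested. The DIO Diet Resistant pFUS rats, both female, had Pdk4 at 1.16 and 0.396 CPM in pancreas, 71.9 and 213 CPM in muscle and 119.6 and 149 CPM in liver.

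Sex was tested in the DIO rats, with the group in the model. No kinase passed in 31 pairs, where edgeR called 0.806% of all fits (4.22% in liver, 0.849% in adipose tissue). The fitted difference of liver Pdk4, female minus male, was 1.17 ± 0.34 (edgeR adjusted p = 0.0970), mainly between the 2 female controls at 110.3 and 128 CPM and the 2 male controls at 27.3 and 36.5 CPM. DESeq2 called it at 1.16, and among the pFUS rats the 1 female, at 84.0 CPM, lay inside the male range. Without pFUS rat 9 or rat 11, the female, the edgeR difference was 1.27 or 1.78 and past the threshold. Pdk1 in adipose tissue differed by -1.29 ± 0.27 (edgeR adjusted p = 0.0821), at 17.8 and 16.5 CPM in female and 27.4 and 50.8 CPM in male controls, and DESeq2 called it at -1.29. Pdk1 in liver differed by 0.54 ± 0.20 (edgeR adjusted p = 0.210) and Pdk2 in intestine by -1.29 ± 0.43 (edgeR adjusted p = 0.624).

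In adipose tissue the kinases followed what else the library held. Pdk4 reached 694 and 631 CPM in obese controls 4 and 5, 475 CPM in obese pFUS rat 9 and 814 CPM in 3-day x10 rat 37, and these are the 4 libraries with Ucp1, the brown fat uncoupling protein, at 751, 572, 1184 and 106 CPM. Ucp1 was at most 6.43 CPM in the other 44. The same 4 had Cidea, also of brown fat, at 205, 157, 178 and 176 CPM, Pdk1 at 83.2, 73.1, 105 and 106 CPM, and Pdk3 at 1.96, 2.29, 2.05 and 3.33 CPM, where the other libraries of their groups that hold no muscle signal had Pdk3 at 7.22 CPM or more.

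The muscle-like and kidney-like adipose libraries stood out by Pdk2. In the 5 libraries with Ckm at 16510.3 CPM or more, lean control 12, lean pFUS 17, 18 and 19 and obese pFUS 6, Pdk2 was 126, 105, 126, 114 and 121 CPM and Pdk3 at most 1.54 CPM. Pdk4 in these libraries was 54.3 CPM in lean control 12 and at most 44.5 CPM in lean pFUS 17, 18 and 19. It was 314 CPM in obese pFUS rat 6, against 46.6 and 40.4 CPM in rats 8 and 10 of its group. Pdk2 was 141 and 95.1 CPM in the libraries with Umod, lean control 11 and lean pFUS 16. In the obese 7-week controls without muscle, kidney or brown fat signal, rats 1 and 2, Pdk2 was 18.3 and 16.4 CPM. The highest Pdk2 of that group, 61.1 CPM, was in a control that held Ucp1, and 3-day x10 adipose tissue reached 67.7 CPM. The adipose contrasts of the 7-week rats therefore compare libraries of unlike content: obese against lean gave 3.65 ± 1.29 for Pdk4, 1.51 ± 0.57 for Pdk1 and -1.36 ± 0.95 for Pdk2, and obese pFUS against control gave -0.71 ± 1.17 for Pdk4, none called. The 3-day difference of x10 from x1 in adipose Pdk4, 3.03 ± 1.02, was 0.28 without rat 37.

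**Figure D5:**
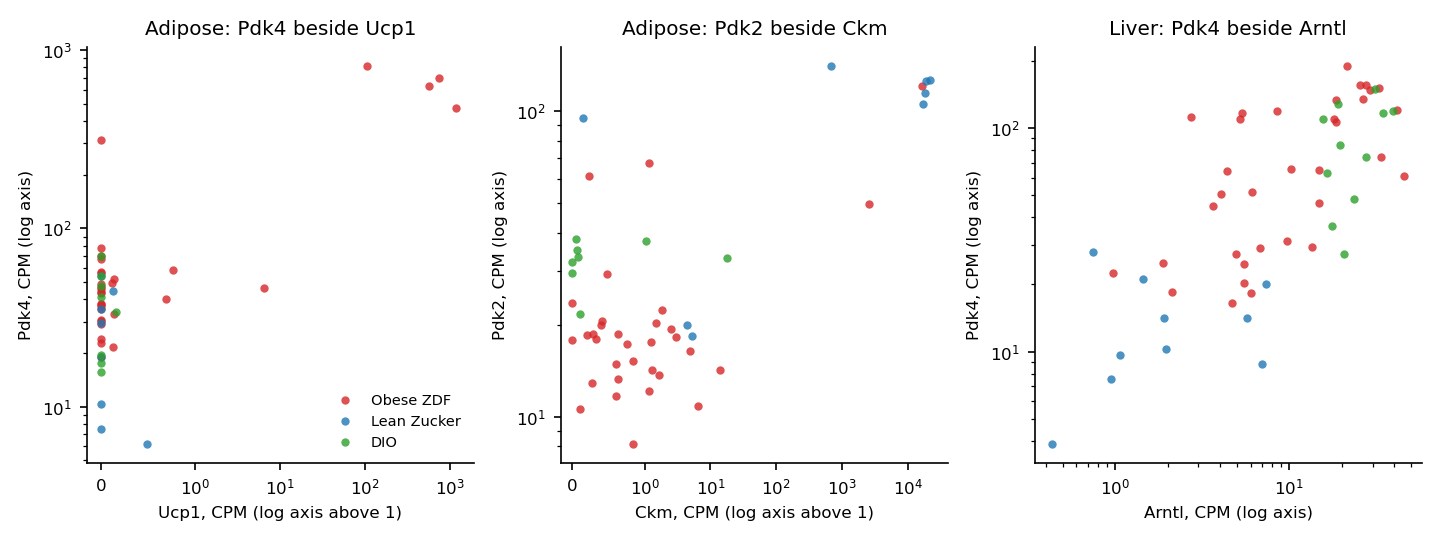
Left and middle, adipose Pdk4 beside Ucp1 and adipose Pdk2 beside Ckm; right, liver Pdk4 beside Arntl; all in CPM on logarithmic axes (linear below 1 on the horizontal axes of the adipose panels), each point a library coloured by model. The 4 libraries with Ucp1 at 106 CPM or more hold Pdk4 at 475 to 814 CPM, and libraries with Ckm at 16510.3 CPM or more hold Pdk2 at 105 to 126 CPM.

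Pdk2, the kinase found in most tissues, was not called in any contrast with all libraries in. Liver Pdk2 in lean rats, 94.3 ± 41.9 CPM after pFUS and 90.5 ± 40.5 in controls (0.14 ± 0.31), passed the threshold at 0.62 without lean control 15, a library that stands apart from its group. A wide separation was in DIO-stz muscle, at 242, 261, 239 and 269 CPM in controls and 127, 177, 163 and 195 CPM after pFUS, without overlap on this scale (-0.53 ± 0.27 after TMM scaling, not called). Obese ZDF muscle gave the same sign, at 186 ± 53.9 CPM in controls and 139.7 ± 32.6 after pFUS (-0.57 ± 0.25, not called, overlapping), and lean muscle gave -0.21 ± 0.27. In kidney Pdk2 was 222 ± 112 CPM in obese controls and 189 ± 25.5 after pFUS (-0.21 ± 0.32), so the kidney difference of Pdk4 was not accompanied by one of the same size in Pdk2.

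Pdk3 was measurable in blood, and its blood values depended on the scale. In CPM it was 20.5, 20.8, 21.3 and 20.9 in DIO-stz controls and 9.10, 7.78, 9.90, 7.63 and 10.2 after pFUS, a clear separation. After TMM scaling, whose factors ran from 0.683 to 3.15 in these controls, the controls spread from 6.62 to 31.2 and averaged 17.2 ± 10.3, beside 9.71 ± 2.37 after pFUS, and the groups overlapped (-0.88 ± 0.39, not called). In the obese ZDF rats Pdk3 averaged 6.64 ± 1.82 CPM in control and 9.66 ± 1.29 CPM in pFUS blood, while the TMM-scaled difference was -0.15 ± 0.28. S100a8, a neutrophil gene, was 139.9, 130.8, 21.1 and 52.1 CPM in the DIO-stz control blood libraries and 8.1 to 38.1 CPM after pFUS, and its part was not tested.

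The enzyme complex that the kinases act on was compared in the same contrasts. In obese against lean liver 1 of its 5 subunit genes rose, Dlat, the E2 core (0.89 ± 0.22), none fell, and the list's median was 0.28 where the median of all genes was -0.04. None of the 3 phosphatase genes and none of the 3 pyruvate carrier and carboxylase genes passed, and Bckdk, the related kinase of branched-chain keto acids, differed by -0.19. Ldha, lactate dehydrogenase A, rose by 1.49 ± 0.17. These lists were chosen with results of these data known, and 14.3% of all liver genes were called.

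In obese against lean muscle Pdhb, an E1 subunit, rose by 0.98 ± 0.19 and Dlat fell by 0.51 ± 0.19. Of the 3 phosphatase genes 2 fell, Pdpr, the regulatory subunit, with -1.95 ± 0.26 and Pdp1, the catalytic one, with -1.25 ± 0.23. Mpc2, of the mitochondrial pyruvate carrier, rose by 0.97 ± 0.30 and Bckdk by 1.24 ± 0.24. With 52.6% of all muscle genes called and library kind confounded with obesity there, a count of calls in muscle says little about a list.

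The longest list held genes known to respond to fatty acids through PPAR and to fasting. In obese against lean liver 7 of 18 rose and none fell, where 8.14% of all genes were called higher, led by Fgf21, a fasting hormone of the liver (3.28 ± 0.51), Plin2, a lipid droplet coat protein (3.02 ± 0.27), Angptl4, an inhibitor of lipoprotein lipase (2.11 ± 0.48), and Acot2, a mitochondrial thioesterase (1.35 ± 0.19); the list's median was 0.51. In muscle 13 of 16 rose and 1 fell, where 27% of all genes were called higher and library kind differed, with Angptl4 at 7.26 ± 0.54 and Ucp3, a mitochondrial carrier of muscle, at 4.21 ± 0.43. Among 9 transcription factors and coactivators linked to the kinase genes, Pparg (1.92 ± 0.28) and Ppard (1.07 ± 0.28) rose in liver and Klf15, a glucocorticoid-responsive factor, fell by 0.87 ± 0.24. Of 7 genes that insulin holds down through FOXO, G6pc (1.85 ± 0.58), the last step of glucose output, and Irs2 (1.69 ± 0.49), an insulin receptor substrate, rose.

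After pFUS in obese liver few of these genes passed the test. None of the 18 PPAR and fasting genes passed there (median 0.02), and none of the PDH complex, phosphatase, carrier, lactate dehydrogenase or transcription factor genes did, beside 0.397% of all genes. Of the 7 FOXO genes 1, Irs2, fell by 2.42 ± 0.50. Of 11 clock genes 4 rose and 2 fell, among them Ciart (3.71 ± 0.68), a repressor of the clock, Dbp (2.93 ± 0.43) and Arntl (-2.58 ± 0.38). In kidney 2 of 12 clock genes fell, Arntl (-2.32 ± 0.24) and Npas2 (-1.72 ± 0.19), which can replace Clock, and no gene of the other lists passed, beside 0.105% of all kidney genes.

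In DIO-stz rats some genes of the PPAR list fell after pFUS in pancreas and liver. In pancreas 8 of 18 fell and none rose, with Acot1, a cytosolic thioesterase, at -4.49 ± 0.67, Cpt1b, the muscle-type carnitine palmitoyltransferase, at -3.09 ± 0.53, and a list median of -1.80 where the median of all genes was 0.01 and 1% were called, 0.619% in the lower direction. Liver showed 5 of 19 lower and none higher, led by Acot1 (-6.78 ± 0.65) and Cyp4a1 (-1.77 ± 0.17), an omega-hydroxylase, beside 1.15% of all genes called and 0.793% in the lower direction, while liver Pdk4 was not lower. The liver list had a median of -0.66 and the median of all liver genes was 0.03.

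In the schedule contrasts few list genes passed, as few genes of any kind did. In liver edgeR called 0.466% of all genes for x10 against x1 at 3 days. At 4 weeks the liver shares were 0.831% for AM & PM x10 against x1 and 1.25% against AM only x10. The 3-day contrast is built from contrasts used to choose the members, and the lists were chosen with earlier results known. With x10 against x1 at 3 days in liver Angptl4 fell by 1.55 ± 0.26 (edgeR adjusted p = 0.031) and Fkbp5, a glucocorticoid target, by 1.05 ± 0.18 (edgeR adjusted p = 0.020). With AM & PM against AM only at 4 weeks in liver Ppard fell by 1.22 ± 0.16 (edgeR adjusted p = 0.0040), Dbp and Nr1d2, a clock repressor, rose by 2.11 ± 0.38 and 0.46 ± 0.10, and Clock fell by 0.69 ± 0.11. No list gene passed in muscle or adipose tissue in these 3 contrasts, where no gene at all was called in those tissues.

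Within groups, some genes tracked Pdk4. After each group's mean was taken out, the genes most like Pdk4 over the 52 muscle libraries were Hadhb, a subunit of the mitochondrial fatty acid oxidation enzyme (Pearson r = 0.76 on log2(CPM + 1), of 7807 genes), Nudt7 (0.73), Cttnbp2nl (0.72), Etfdh, which passes electrons from fatty acid oxidation to the respiratory chain (0.72), and Myot (0.71). Over the 55 liver libraries they were Rarb, a retinoic acid receptor (0.64), Zfp36l1 (0.64), Tmem135 (0.63), Ccl6 (0.62) and Tmem161b (0.61), and over the 21 kidney libraries Ccdc115 (0.86), Snapc1 (0.84), Rxylt1 (0.84), Ppp2cb (0.83) and Pigg (0.82). These are descriptions with no test, and points of a group share cohort and library preparation. With Spearman's coefficient 4 of the 5 muscle genes, and 3 of the 5 in liver and in kidney, were among the first 5 again.

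Tissue patterns were compared across 8 tissues, with means of obese controls as points. Adipose tissue came from the 3-day controls and the other tissues from the 7-week controls, which mixes cohorts. Pdk4 averaged 40.8 CPM in 3-day control adipose tissue and 348 CPM in that of the 7-week controls. On these points the pattern of Pdk4 was most like those of Rassf3 (0.98), Acadm, a medium-chain fatty acid dehydrogenase (0.95), and Tmem38b (0.95). For Pdk1 the nearest were Gpam, the first enzyme of glycerolipid synthesis (0.96), Npc1 (0.95) and Rhobtb3 (0.94), for Pdk2 Tom1 (0.99), Dele1 (0.98) and Gadd45g (0.98), and for Pdk3 Trim59 (0.97), Ccdc88c (0.96) and Runx2 (0.96), among 13310 genes. With a pseudocount of 0.1 in place of 1 Cpt2 (0.97) came first for Pdk4 and Rassf3 left the first 3, as Gadd45g and Runx2 did for Pdk2 and Pdk3.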

How the data were processed

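RNA was sequenced from rat tissue kept in RNAlater, with a stranded mRNA kit or, for pancreas and adipose tissue, a stranded total RNA kit, per the labels' protocols. The authors deposited expected counts per gene as whole numbers, and per the submitters' processing notes they used STAR 2.5.3a, RSEM and the build Rnor_6.0, with no annotation release named there. No 2 libraries of a group were identical among 477 pairs. The members and gene lists were chosen with earlier results of these data known.

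From the counts, CPM was computed on library totals, and edgeR 4.0.16 (R 4.3.3) fitted its quasi-likelihood F test to each tissue and cohort separately, with TMM factors, genes kept by filterByExpr at a minimum count of 10, a sex term in the DIO cohort, and Benjamini-Hochberg adjustment over all genes of a fit. The fit was tested on simulated data. P-values measure the spread between animals of a group. Counting limits use 3 counts and cover counting error only. DESeq2 1.42.0, RLE factors, no filter, smaller fits, each library left out and other alternatives were run. The named genes were the members, the pyruvate dehydrogenase genes, at most 4 called genes with the largest fold change of each other list, and the genes most correlated with Pdk4 (5 a tissue, mean CPM of at least 5) or with each member over 8 tissues (3 each). Of the list genes, Nr3c1 and Cd36 were not found under those symbols. Promoters came from RefSeq by symbol, and all 4 members matched. Protein sequences and transcript lengths were not used here.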

Additional observations from a re-analysis of the deposited data

Results flagged for a closer look

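Each kinase was checked in each group of 4 or more libraries, 234 pairs of kinase and group that are not independent, and 18 pairs had 1 library far from the rest; chance alone flags about 1 in 20, and no cause was tested. For Pdk4 these were the obese pFUS kidney of rat 10 at 6.29 CPM (others 2.93 to 3.85), the 4-week AM & PM x10 liver of rat 29 at 65.7 CPM (others 109.7 to 117), the 3-day x10 adipose library of rat 37 at 814 CPM (others 33.1 to 56.1) and the DIO-stz pFUS muscle of rat 8 at 392 CPM (others 168 to 195).

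For Pdk1 they were 3 adipose libraries, obese pFUS rat 9 at 105 CPM (others 24.4 to 26.4), 3-day x10 rat 37 at 106 CPM (others 32.2 to 39.6) and 4-week AM only x10 rat 28 at 57.9 CPM (others 33.0 to 36.5), the first 2 of which also held Ucp1. DIO-stz control rat 3 had Pdk1 at 18.5 CPM in brain (others 20.1 to 20.3) and rat 6 at 16.9 CPM in muscle (others 21.0 to 21.5).

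Pdk2 stood apart in the brain of lean control 11 at 122 CPM (others 40.5 to 58.2), the brain of lean pFUS rat 19 at 90.8 CPM (others 45.6 to 55.2) and the muscle of 4-week x1 rat 22 at 87.7 CPM (others 141 to 151). Pdk3 did so in lean pFUS blood 17 at 11.4 CPM (others 5.00 to 6.72), lean pFUS adipose 16 at 15.5 CPM (others 0 to 1.04), lean pFUS muscle 19 at 1.05 CPM (others 0.332 to 0.421), 4-week AM only x10 muscle 25 at 1.33 CPM (others 0.544 to 0.619), 3-day x10 muscle 38 at 0.555 CPM (others 1.34 to 1.45) and DIO-stz control muscle 3 at 0.776 CPM (others 0.998 to 1.02).

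The response of liver Pdk4 to pFUS differed between obese and lean rats, with a fitted difference of -3.11 on the log2 scale; the members were chosen on this contrast, so it is a description.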

How the results depend on the processing

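No alternative reversed a called direction: of the values compared 3382 stayed on their side of the threshold, 17 passed it newly and 9 lost it. The 3 obese against lean calls, the call of liver Pdk4 after pFUS in obese rats and that of its difference from lean rats held in every alternative that was run. The obese pFUS calls numbered 2 and fell to 1 with the older quasi-likelihood method of edgeR, chosen after seeing the data, where kidney Pdk4 was -3.19 (adjusted p = 0.0540), and ranged from 1 to 2 with 1 library left out, where kidney Pdk4 ranged from -3.42 to -2.76. With DESeq2, counts of 0 became 1 for 3-day x1 (liver Pdk4 at -1.49), 1 for x10 (liver Pdk4 at -1.45), 1 for x10 against x1 (muscle Pdk1 at 0.78), 3 for DIO-stz (muscle Pdk4 at -1.55, pancreas Pdk4 at -4.14, liver Pdk1 at 0.85) and 2 for sex (liver Pdk4 at 1.16, adipose Pdk1 at -1.29). Leaving out 1 library gave counts from 0 to 1 in the lean, DIO-stz and sex contrasts: Pdk3 in lean adipose at -3.03 without pFUS rat 16, liver Pdk2 in lean rats at 0.62 without control 15, liver Pdk1 at 0.91 and pancreas Pdk4 at -5.25 without DIO-stz pFUS rat 8 (pancreas range to -3.66), liver Pdk4 by sex at 1.27 and 1.78 without pFUS rats 9 and 11 (lowest 0.92), and kidney Pdk2 by sex at 1.08 without control 6. Without the libraries that stand apart, the lean contrast had 1 call (liver Pdk2 at 0.62) and the obese pFUS contrast 3. Newly passing there was adipose Pdk1, at -0.55. Of the obese rats that adipose fit kept only controls 1 and 2 and pFUS rats 8 and 10. Lean pFUS adipose tissue had no library left and could not be fitted. Counts without RNAs that carry no poly(A) tail, for DIO-stz chosen after seeing the data, kept every call and gave no new one. The cause of these shifts was not tested. No paired analysis was possible because the groups compared share no replicate numbers, a number being read as 1 animal across its tissues. Pdk4 in blood and Pdk3 in 3-day liver were too low in counts to be fitted.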
